A study of Cucurbita pepo with 23 samples.

Results

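Invertases split sucrose into glucose and fructose. RNA of hand-dissected nectaries of *Cucurbita pepo* (Crookneck Yellow Squash) was sequenced at −24, −15, 0 and +9 hr from anthesis, in female and in male flowers. Each sex and stage has 3 libraries except the female −15 hr stage, which has 2, so that there are 23. The table holds 8861 melon gene entries, and 9 of them carry a description with the words beta-fructofuranosidase or invertase and without pectinesterase. Of the 9 genes, 3 are cell wall invertases, 1 is a vacuolar invertase and 5 are neutral invertases, while 0 entries matched the words for a vacuolar inhibitor of fructosidase. All plants were of 1 cultivar, and no treatment, transgene or plant age is named. The stages were called pre-secretory #1 (buds still closed), pre-secretory #2, secretory (full anthesis) and post-secretory. The text held by GEO gives other hours for the second and the last stage, and those in the paper's methods were taken. Clock time was alike for the −24 and 0 hr nectaries, and the −15 and +9 hr nectaries were collected 9 hr later in the day. Between successive stages, stage and time of day therefore cannot be told apart. The replicates are described as replicate RNA isolations, and nothing says whether they came from different plants, so that p-values measure the spread between these isolations.

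Cell wall invertases act on sucrose outside the cell and vacuolar invertases on sucrose stored in the vacuole, and both are acid enzymes of the same glycoside hydrolase family. Neutral invertases belong to an unrelated family and work in the cytosol, the mitochondria or the plastids. Small inhibitor proteins of plants bind acid invertases and are related to inhibitors of pectin methylesterases. In nectaries, sucrose that leaves the cells through the carrier *SWEET9* can be split by cell wall invertases, and Arabidopsis plants without *CWINV4* make no nectar.

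The cell wall genes are *CWINV4* (XM_008446238.1, described as CWINV3-like and matched to Arabidopsis *CWINV4* and *CWINV5*), a *CWINV2*-like gene (XM_008444640.1, described as insoluble isoenzyme 1-like) and a *CWINV1*-like gene (XM_008464234.1, a partial mRNA). The vacuolar gene is *INV2* (FJ231520.1). Of the neutral genes, *CINV1* (XM_008448549.1) matches a squash gene that RefSeq (assembly ASM280686v2) names chloroplastic-like. The others are called here by the letter in the RefSeq name of their squash match, namely the D-type (XM_008463700.1), the B-type (XM_008449769.1), the A-type (XM_008440750.1) and the *CINV1*-like A-type (XM_008455051.1). Both A-type names carry the addition mitochondrial-like. A squash match was listed for 7 of the 9 genes, and the matches were 7 different squash genes. Since the genome of *Cucurbita* was duplicated as a whole, each melon entry may still hold reads of more than 1 squash gene, and similar genes may share reads. No gene lengths were at hand, so levels are compared between stages and sexes and not between genes.

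For *CWINV4*, the primers of the study and the stretch of the squash contig that they bound are given, since they fix which sequence the name stands for. The primer sites are in capitals in the stretch of 101 bases, which takes positions 274 to 374 of the 399 contig bases listed. All are written 5′ to 3′, and the reverse primer lies on the opposite strand.
forward primer: cttcccgagtatatccgactttg
reverse primer: ccaaaccttcaaacgggaaatc
*CWINV4* stretch: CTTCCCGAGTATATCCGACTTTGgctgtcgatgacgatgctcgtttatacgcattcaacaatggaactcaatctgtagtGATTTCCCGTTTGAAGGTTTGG

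Values are reads per gene after the authors' upper quartile scaling and rounding, called normalized reads here, and they summed to between 9269760 and 16139522 per library. Of 3 genes found by the words for nectary markers, *SWEET9* (XM_008443590.1) and the nectary regulator *MYB305* (XM_008445303.1) carried nearly all reads before +9 hr. The list summed to 173 to 284 normalized reads in female nectaries at −24 hr and to 86134 to 198545 in male nectaries at −24 hr. The sums were at least 237360 in each library at −15 and 0 hr. The third gene, a *MYB305*-like entry (XM_008459314.1), was at 0 in the −24 hr libraries of both sexes. At +9 hr, the sum was 30671 in female replicate 1, against 2377 and 1795 in replicates 2 and 3, and 10792 to 41063 in male nectaries. The female −24 hr libraries and female +9 hr replicate 1 thus stood apart. All +9 hr libraries also differed from the others in their low values, with a 5th percentile over genes of 28 to 62 normalized reads, against 9 to 23, and with 0 to 17 genes at 0, against 25 to 161.

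**Figure D1:**
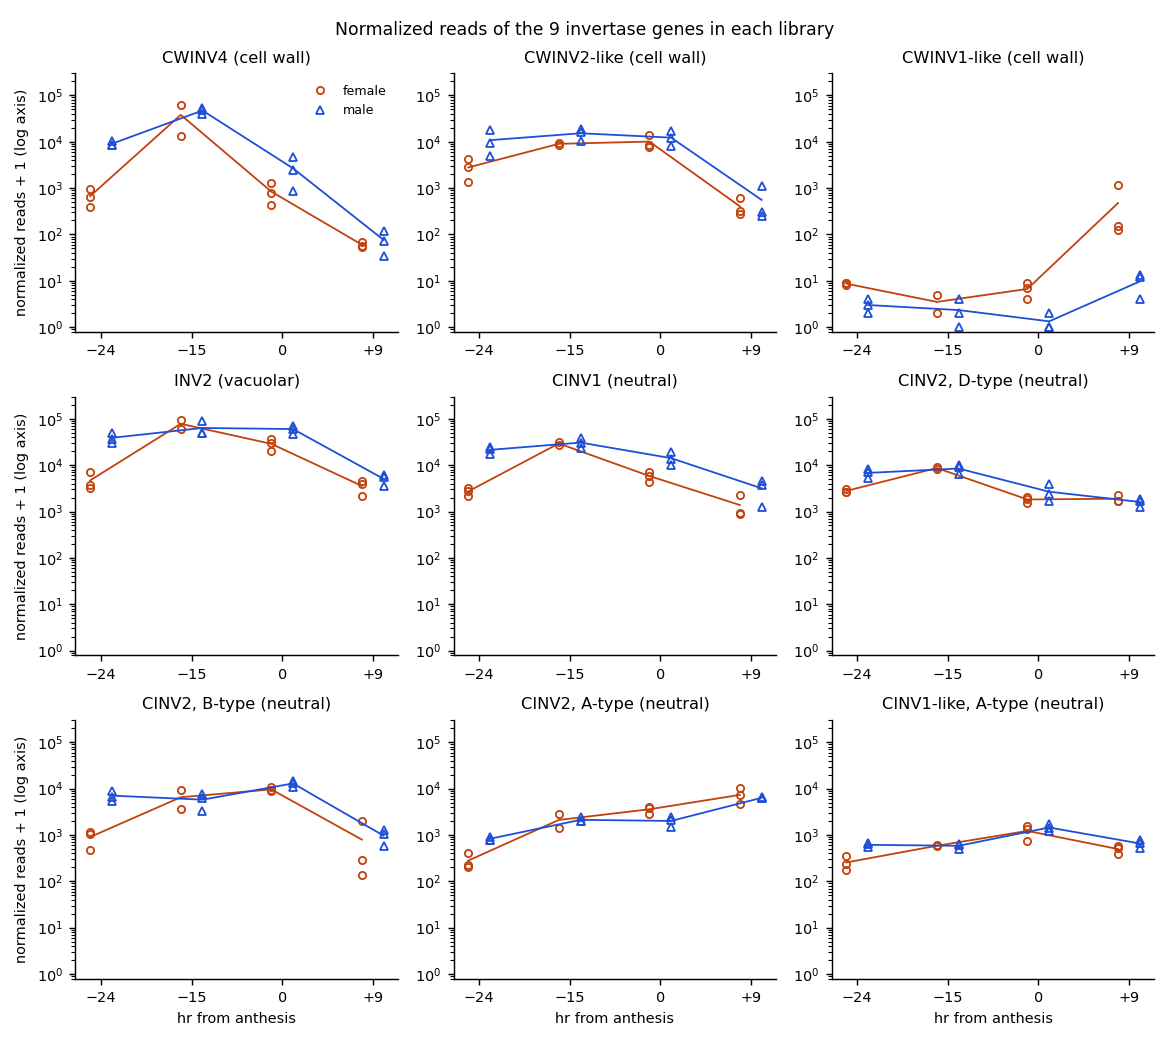
Normalized reads (plus 1, log axis) of the 9 invertase genes by hr from anthesis, with circles for female and triangles for male libraries and lines through the group means. *CWINV4* peaks at −15 hr in both sexes and is at 33 to 120 reads at +9 hr, while the A-type gene is highest at +9 hr.

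*CWINV4* reached its highest level at −15 hr in both sexes and its lowest at +9 hr. In female nectaries, it had 649, 970 and 387 normalized reads at −24 hr, 62378 and 13577 at −15 hr, 422, 793 and 1300 at 0 hr, and 56, 53 and 68 at +9 hr. In male nectaries, it had 8568, 10110 and 8374 at −24 hr, 52803, 48428 and 40162 at −15 hr, 866, 2494 and 4621 at 0 hr, and 33, 120 and 72 at +9 hr. Both female libraries at −15 hr stood above all other female libraries, but they differed from each other by a wide margin, and female libraries at −24 and 0 hr overlapped. In male nectaries, no 2 stages overlapped.

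From −24 to −15 hr, *CWINV4* rose by 5.54 log2 units in female nectaries (standard error, SE, of 0.65, adjusted p = 2.5e-06 by limma) and by 2.38 in male nectaries (SE 0.58, adjusted p = 0.017). All log2 changes here are on the scale of log2(value + 1), and a change passes, or is called, where it is at least 2-fold with an adjusted p under 0.05 (Benjamini-Hochberg adjustment over all genes). The male rise did not pass without −24 hr replicate 1 or 3 or −15 hr replicate 2 (adjusted p of 0.064, 0.056 and 0.068), nor with quantile normalization (1.96, adjusted p = 0.11). From −15 to 0 hr, the gene fell by 5.26 log2 units in female and by 4.44 in male nectaries (adjusted p of 1.8e-06 and 3.3e-06). It fell again to +9 hr, by 3.67 and 5.01 (adjusted p of 2.6e-05 and 6.0e-07). Its +9 hr values lay near the 5th percentile over genes of the same libraries, which was 44, 43 and 62 in females and 43, 28 and 32 in males. In bulk tissue, fewer cells that express a gene and less RNA per cell cannot be told apart.

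The order of the *CWINV4* stages differed below the peak. In male nectaries, the order of means was −15, −24, 0 and +9 hr (47131 ± 6420, 9017 ± 951, 2660 ± 1883 and 75 ± 43.6, mean ± SD, n = 3 each), and the −24 and 0 hr stages differed by −2.06 log2 units (adjusted p = 0.0047). In female nectaries, the order was −15, 0, −24 and +9 hr (37978 ± 34508, n = 2, then 838 ± 441, 669 ± 292 and 59 ± 7.94, n = 3 each). There, 0 and −24 hr did not differ beyond their spread (a difference of 0.28, SE 0.58, adjusted p = 0.67). The highest group mean of *CWINV4* was 799 times its lowest, and on the log2 scale 1.38% of all genes had a wider range of group means.

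The *CWINV2*-like gene, whose Arabidopsis match is also a cell wall enzyme, stayed high through 0 hr instead of falling after −15 hr. Its normalized reads in female nectaries were 1370, 2840 and 4140 at −24 hr, 8442 and 9549 at −15 hr, 8361, 7838 and 13983 at 0 hr, and 613, 277 and 317 at +9 hr. In male nectaries, they were 18062, 9381 and 4941 at −24 hr, 10537, 19249 and 15842 at −15 hr, 8246, 11730 and 16751 at 0 hr, and 245, 1116 and 298 at +9 hr. The first 3 male stages overlapped, as did the female −15 and 0 hr stages, and every +9 hr library lay below all others of its sex. From 0 to +9 hr, it fell by 4.68 log2 units in female and fell by 4.76 in male nectaries (SE 0.54 each, adjusted p of 9.3e-07 and 4.2e-07). Female nectaries gained 1.83 log2 units from −24 to −15 hr (SE 0.60, adjusted p = 0.017). This rise did not pass without −24 hr replicate 1 or without either −15 hr replicate (adjusted p between 0.068 and 0.088), nor with total scaling (adjusted p = 0.058) or quantile normalization (adjusted p = 0.067).

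The *CWINV1*-like gene was near the floor except at +9 hr in female nectaries. There it had 121, 154 and 1145 normalized reads, while the male +9 hr libraries had 3, 11 and 12. At the 3 earlier stages, it had between 1 and 8 in female and between 0 and 3 in male nectaries. It reached 10 reads in 5 libraries, all at +9 hr, and passed the filter on low values only through these. Since the group in which it is high admitted it and its other values lie under about 10 reads, no fold or test of it is read as a result. The female and male +9 hr libraries did not overlap. Beside it, the sums of 4 xylem genes were 797 to 1047 in the female +9 hr libraries and 539 to 703 in the male ones. Those of 3 phloem protein genes were 1295, 6046 and 1123, against 668 to 1349. Among 3 genes whose description names guard cells, 1 (XM_008454593.1) carried most of the sum, with 4163, 29516 and 13256 reads in females and 4703, 1294 and 781 in males, and another (XM_008463762.1) had 47, 66 and 60 against 18, 67 and 62. The part of these tissues in the result was not tested.

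*INV2*, the vacuolar invertase, rose in female nectaries between −24 and −15 hr to above the level that male nectaries had at −24 hr. Female nectaries had 3707, 7110 and 3255 normalized reads at −24 hr, 95153 and 60868 at −15 hr, 36228, 30069 and 20209 at 0 hr, and 4645, 3860 and 2177 at +9 hr. Male nectaries had 49655, 36154 and 30773 at −24 hr, 48590, 91697 and 50163 at −15 hr, 47554, 61650 and 71004 at 0 hr, and 3639, 5988 and 5536 at +9 hr. Male libraries of the first 3 stages overlapped, and the +9 hr libraries lay below them. The female rise was 4.11 log2 units (SE 0.42, adjusted p = 5.7e-07). *INV2* then fell by 1.44 log2 units to 0 hr (adjusted p = 0.0061), which did not pass without −15 hr replicate 1 (adjusted p = 0.087). From 0 to +9 hr, *INV2* fell by 3.05 in female and by 3.58 in male nectaries (SE 0.38 each, adjusted p of 2.0e-06 and 1.9e-07).

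Of the neutral invertases, *CINV1* and the D-type gene had their highest means at −15 hr in both sexes and were lower at 0 hr. *CINV1* had 2135, 2733 and 3270 normalized reads in female nectaries at −24 hr, 31192 and 27579 at −15 hr, 7175, 5940 and 4397 at 0 hr, and 2288, 945 and 900 at +9 hr. The male values were 24321, 17733 and 22124, then 23596, 38535 and 29988, then 10065, 13336 and 19087, and at +9 hr 1228, 3693 and 4573. The female −15 hr libraries stood above all other female ones, whereas the male −24 and −15 hr libraries overlapped. *CINV1* rose by 3.46 log2 units in females from −24 to −15 hr (SE 0.46, adjusted p = 1.0e-05). It fell from −15 to 0 hr by 2.36 log2 units in females (SE 0.46, adjusted p = 0.00025) and by 1.14 in males (SE 0.41, adjusted p = 0.024). To +9 hr, it fell by 2.20 in females and fell by 2.32 in males (adjusted p of 0.00015 and 8.3e-05). The male fall from −15 to 0 hr did not pass without −15 hr replicate 2 or 3 or 0 hr replicate 1 or 2 (adjusted p between 0.051 and 0.11), nor with median ratio scaling (adjusted p = 0.11) or quantile normalization (adjusted p = 0.054).

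The D-type gene had 3069, 2689 and 2580 normalized reads in female nectaries at −24 hr, 8918 and 8444 at −15 hr, 1559, 2052 and 1845 at 0 hr, and 1724, 1666 and 2281 at +9 hr. In male nectaries, it had 5205, 8214 and 7004, then 8951, 9938 and 6506, then 1727, 2388 and 3898, and last 1900, 1688 and 1235. The −15 hr libraries of each sex stood above its 0 hr libraries. The gene gained 1.65 log2 units in females from −24 to −15 hr (SE 0.29, adjusted p = 0.00017). From −15 to 0 hr, it fell by 2.26 in females (SE 0.29, adjusted p = 3.1e-06) and fell by 1.72 in males (SE 0.26, adjusted p = 1.8e-05). Unlike *CINV1*, it was not called between 0 and +9 hr, with log2 fold changes of 0.05 (adjusted p = 0.88) in female and −0.67 in male nectaries (adjusted p = 0.031, a change below 2-fold).

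The B-type gene had its highest mean at 0 hr and then fell steeply. Female nectaries had 1174, 1050 and 484 normalized reads at −24 hr, 9331 and 3690 at −15 hr, 9432, 10723 and 8703 at 0 hr, and 1960, 136 and 284 at +9 hr. Male nectaries had 5452, 6653 and 9081, then 6248, 7828 and 3245, then 10884, 13138 and 14805, and at +9 hr 582, 1067 and 1249. In males, the 0 hr libraries lay above all others, but the gain of 1.25 log2 units from −15 hr did not pass in the fit of all libraries (SE 0.64, adjusted p = 0.10), while it did with the male libraries alone (adjusted p = 0.0068), with estimated library weights (adjusted p = 5.1e-05) and without female +9 hr replicate 1 (adjusted p = 0.013). To +9 hr, the gene fell by 4.50 log2 units in females (SE 0.64, adjusted p = 9.1e-06) and fell by 3.80 in males (adjusted p = 4.5e-05). The female rise from −24 to −15 hr, 2.80 log2 units (adjusted p = 0.0037), did not pass without −15 hr replicate 1 (adjusted p = 0.078). Female +9 hr replicate 1 also held the highest nectary marker sum of its group, as given above.

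Unlike the other neutral invertases, the A-type gene had its lowest values at −24 hr and its highest at +9 hr in both sexes. Its female values were 202, 221 and 414 normalized reads at −24 hr, 1436 and 2779 at −15 hr, 2780, 3896 and 4076 at 0 hr, and 10131, 7187 and 4672 at +9 hr. Its male values were 792, 895 and 794, then 1984, 1981 and 2399, then 2448, 1470 and 2101, and at +9 hr 6225, 6536 and 6248. No 2 female stages overlapped, and the male −15 and 0 hr libraries did. From −24 to +9 hr, the gene rose by 4.72 log2 units in female and by 2.94 in male nectaries (SE 0.30 each, adjusted p of 2.5e-10 and 1.6e-07). The largest single step was from −24 to −15 hr in females, at 2.91 (adjusted p = 2.2e-06). In males, it rose by 1.35 in that step (adjusted p = 0.0091) and by 1.69 from 0 to +9 hr (adjusted p = 7.6e-05). The female change from 0 to +9 hr, 0.98, stayed just below 2-fold (adjusted p = 0.0081), and it passed without 0 hr replicate 2 or 3 or +9 hr replicate 3, with total scaling (1.63) and with quantile normalization (1.71).

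The *CINV1*-like A-type gene peaked at 0 hr. It had 179, 232 and 352 normalized reads in female nectaries at −24 hr, 575 and 593 at −15 hr, 1587, 1341 and 740 at 0 hr, and 523, 582 and 384 at +9 hr. Male nectaries had 536, 625 and 675, then 642, 611 and 497, then 1707, 1434 and 1203, and at +9 hr 517, 776 and 673. In males, the 0 hr libraries lay above all others, and it rose by 1.30 from −15 to 0 hr (SE 0.27, adjusted p = 0.00047). The female change of 0.99 in this step had an adjusted p of 0.0088 and stayed just below 2-fold, while it passed without −15 hr replicate 2 or 0 hr replicate 3 and with median ratio scaling (1.32). From −24 to −15 hr, females gained 1.25 log2 units (adjusted p = 0.0027), or 0.79 with total scaling, which is below 2-fold. The gene fell to +9 hr by 1.25 in female and by 1.15 in male nectaries (SE 0.27 each, adjusted p of 0.00063 and 0.0013). With total scaling, these falls were 0.60 and 0.59 log2 units and did not pass (adjusted p of 0.055 and 0.063), and without male +9 hr replicate 1 the male fall of 0.99 stayed below 2-fold.

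**Figure D2:**
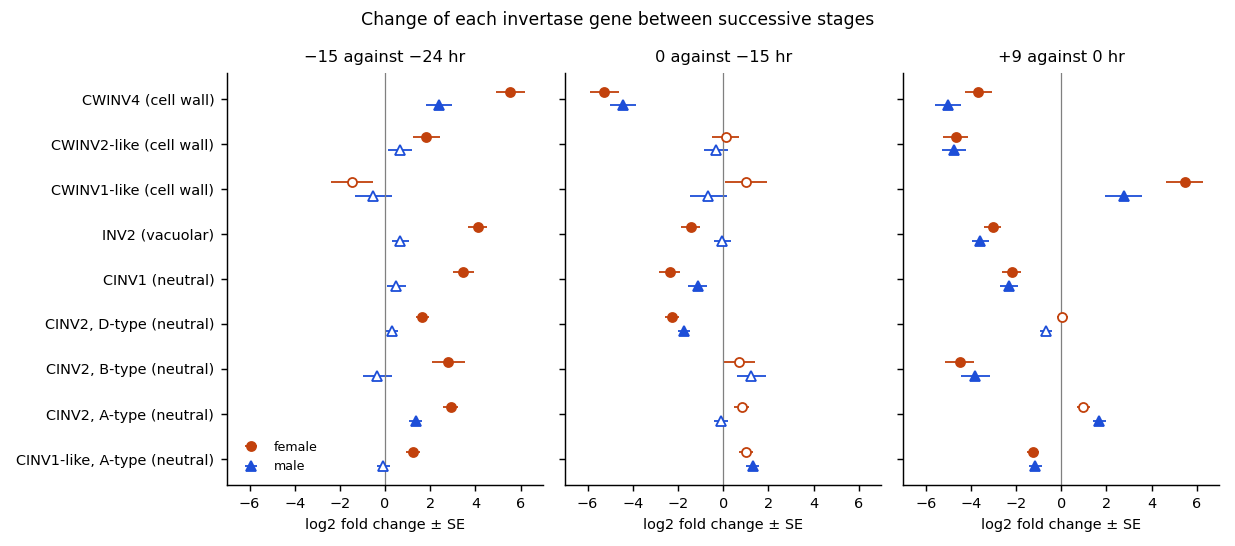
Log2 fold change with its standard error (SE) for each invertase gene between successive stages (circles female, triangles male), filled where the adjusted p is under 0.05 and the change at least 2-fold. In the first step 8 female but 2 male symbols are filled, while in the last step both sexes have 6 genes filled on the left.

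From −24 to −15 hr, 8 of the 9 members rose in female nectaries, where 13.9% of all genes were higher and 24% lower, and the *CWINV1*-like gene did not pass. These rises rest on the female −24 hr libraries, whose nectary marker sums were the lowest of all libraries (173 to 284). In the female −15 hr libraries, xylem sums were lower than at −24 hr (412 to 472 after 987 to 1130). So were those of phloem (223 to 261 after 675 to 813) and guard cells (879 to 912 after 1047 to 2660). The pollen and anther sums overlapped (1858 to 2119 after 1486 to 1940). The phloem and guard cell sums fell mostly through XM_008460832.1 (means of 40.5 after 527) and XM_008467230.1 (209.5 after 1636). The guard cell gene XM_008463762.1 rose, with 441 and 521 after 72 to 150. XM_008454593.1 (guard cells), XM_008454450.1 (phloem) and XM_008461728.1 (xylem) had higher means, with libraries that overlapped. The other phloem and xylem genes had lower means. The part of these in the result was not tested. In male nectaries, 2 members rose (*CWINV4* and the A-type gene), where 1.57% of all genes were higher and 3.7% lower. The median log2 fold change of the members was 2.80 in females, against −0.19 over all genes, and 0.50 in males, against −0.04.

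From −15 to 0 hr, 4 members fell in females, where 31.1% of all genes were lower and 20.5% higher. In males, 3 fell and 1 rose, where 29.7% were lower and 17.5% higher. *CWINV4*, *CINV1* and the D-type gene fell in both sexes. The member medians of 0.11 and −0.33 lay beside −0.30 and −0.31 over all genes.

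From 0 to +9 hr, 6 members fell in females, where 17.3% of all genes were lower and 32% higher, and 6 in males, where 17.6% were lower and 31.4% higher. The member medians were −2.20 and −2.32, against 0.34 and 0.29 over all genes. The same 6 genes fell in both sexes, namely *CWINV4*, the *CWINV2*-like gene, *INV2*, *CINV1*, the B-type and the *CINV1*-like A-type gene. The A-type gene rose in males. The *CWINV1*-like gene was also called higher in both sexes, but nothing is read from that, for the reason given above, and the male call was lost with a pseudocount of 10 (adjusted p = 0.20) and with quantile normalization (adjusted p = 0.67).

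Median ratio scaling moved the median of all genes from −0.30 to 0.01 (female) and from −0.31 to 0.00 (male) between −15 and 0 hr, and from 0.34 to 0.07 and from 0.29 to 0.06 between 0 and +9 hr. With total scaling, the medians of the last step were 0.98 and 0.84. In that step, 2839 of all genes were higher and 1537 lower in females, against 2368 and 1964 with median ratio scaling, 4263 and 861 with total scaling and 1884 and 2014 with quantile normalization. No called member changed its direction between successive stages under these scalings or quantile normalization.

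For stages that do not follow each other, the calls were as follows. The −15 and +9 hr stages shared their clock time, as did the −24 and 0 hr stages, while the −24 and +9 hr stages did not. Between −15 and +9 hr, 2 members were higher and 6 lower at +9 hr in females, where 25.5% of all genes were higher and 21.9% lower. In males, 2 were also higher and 6 lower, where 24.2% and 19.4% were. Of the 2 higher in each sex, 1 is the *CWINV1*-like gene, from which nothing is read. Its male change was 2.10 (adjusted p = 0.037) with libraries that overlapped, and it turned to −0.50 with quantile normalization. Between −24 and +9 hr, 2 members were higher, again with the *CWINV1*-like gene among them, and 3 lower in females (26.3% and 29.1% of all genes), and 1 was higher and 6 were lower in males (21.6% and 19.7%). Between −24 and 0 hr, the 6 members called in females were higher at 0 hr, where 25.6% of all genes were higher and 38% lower. In males, the A-type and *CINV1*-like A-type genes were higher and *CWINV4* and the D-type gene lower, where 17.5% and 31.1% of all genes were.

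**Figure D3:**
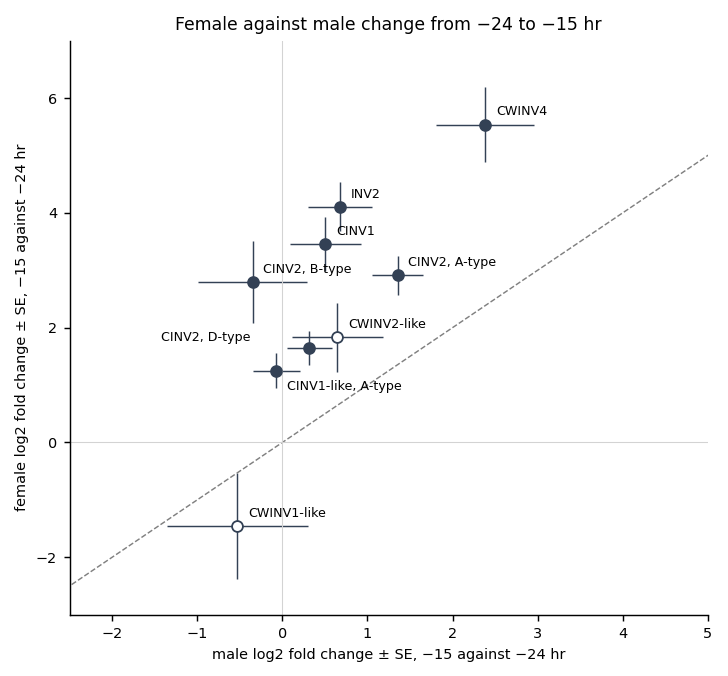
Change from −24 to −15 hr in female (vertical) against male nectaries (horizontal), as log2 fold change with standard errors, filled where the change differed between the sexes at an adjusted p under 0.05 and the broken line marking equal change. The 7 filled genes lie above the line, *CWINV4* at 5.54 against 2.38 and *INV2* at 4.11 against 0.67.

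At −24 hr, 8 members were lower in female than in male nectaries, where 16.6% of all genes were lower and 24.6% higher. The differences ran from −1.27 log2 units in the D-type gene (adjusted p = 0.00046) to −3.84 in *CWINV4* (SE 0.58, adjusted p = 2.1e-05), and *INV2* differed by −3.11 (SE 0.38, adjusted p = 1.8e-06). With total scaling, the D-type and the *CINV1*-like A-type gene stayed below 2-fold (−0.94 and −0.99). For the 8 genes, no female −24 hr library reached the lowest male one. The share of all genes without such overlap was not counted, so this adds nothing to the calls. The *CWINV1*-like gene, at 7 to 8 reads in females and 1 to 3 in males, was not called. The nectary marker sums of the same libraries differed by far more than the invertases (173 to 284 against 86134 to 198545). The xylem sums were 987 to 1130 in the female libraries against 418 to 511 in the male ones. Those for phloem were 675 to 813 against 310 to 663 and those for guard cells 1047 to 2660 against 792 to 857, all without overlap. The pollen and anther sums overlapped (1486 to 1940 against 1761 to 2430). Single genes carried most of the female phloem and guard cell sums (XM_008460832.1, means of 527 against 60, and XM_008467230.1, 1636 against 236). The other phloem and guard cell genes had lower means in females, as had the xylem gene XM_008461728.1 (206 against 240). The part of these in the result was not tested. At −15 and 0 hr, limma called 0 members between the sexes, where 0.135% and 0.248% of all genes were called. At an unadjusted p under 0.05 there were 0 and 5 members, with the *CWINV1*-like gene among the 5. The share of all genes at that threshold was not counted, so nothing particular to the members is read from this. At +9 hr, 1 member was called, higher in females (8.36% of all genes were), the *CWINV1*-like gene described above, from which nothing is read. Without female +9 hr replicate 1, *CINV1* and the B-type gene were also called, lower in females by 1.57 and 2.22 log2 units (adjusted p of 0.0071 and 0.0014). Without male +9 hr replicate 1, *CINV1* was (−1.72, adjusted p = 0.0048).

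The rise from −24 to −15 hr itself was larger in females for 7 members, by a test of the difference between the changes, where 12.3% of all genes had a larger and 15.7% a smaller change in females. The difference was 3.44 log2 units for *INV2*, 3.16 for *CWINV4*, 3.15 for the B-type gene, 2.95 for *CINV1*, 1.56 for the A-type, 1.33 for the D-type and 1.32 for the *CINV1*-like A-type gene. The *CWINV2*-like gene, with 1.18 (SE 0.80), did not pass (adjusted p = 0.29). Without female −15 hr replicate 1, 3 members passed, and *CWINV4* was at 2.06 (adjusted p = 0.11). Without female −15 hr replicate 2, the A-type (adjusted p = 0.12) and the *CINV1*-like A-type gene (adjusted p = 0.064) did not pass. The latter also missed without female −24 hr replicate 1 (adjusted p = 0.063) or male −15 hr replicate 3, and the B-type gene without male −15 hr replicate 3 (adjusted p of 0.051 each). *INV2* and *CINV1* passed without each library in turn. With total scaling, 4 members passed. In the later steps 0 members differed in their change by limma, where 0.0113% and 7.18% of all genes did. In each of these steps 1 member had an unadjusted p under 0.05, *INV2* and then the *CWINV1*-like gene. Nothing is read from this, since the share of all genes at that threshold was not counted. Without female +9 hr replicate 1, the B-type gene passed in the last step (−1.80, adjusted p = 0.046).

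**Figure D4:**
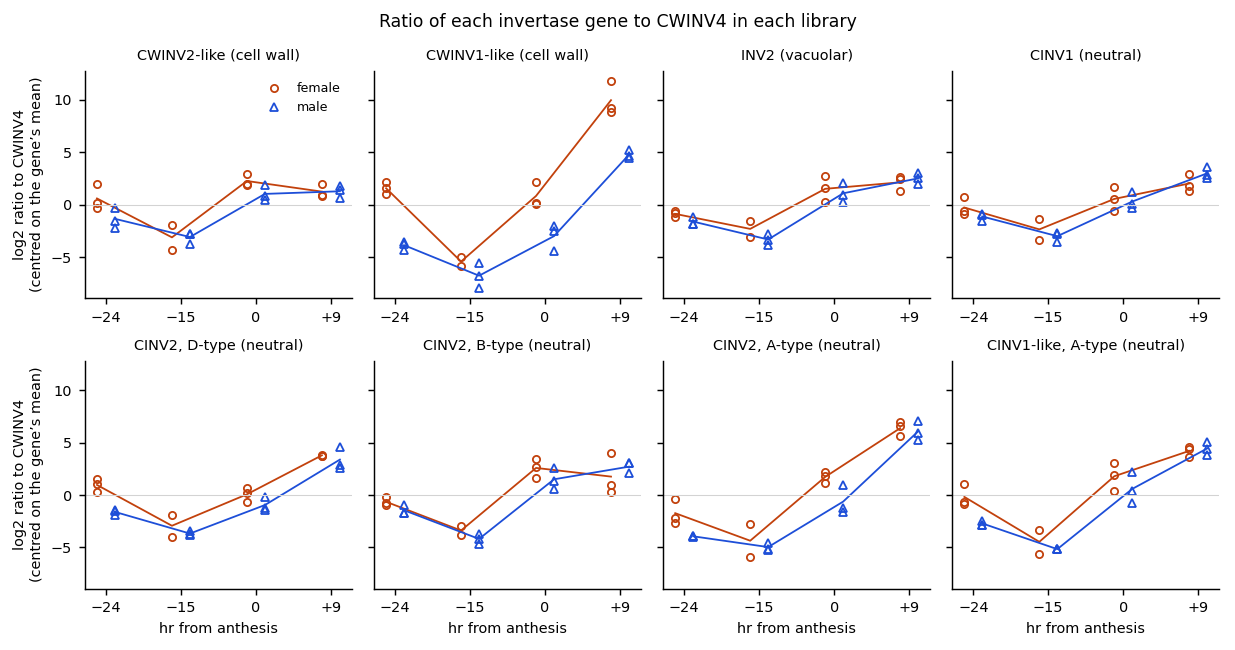
Log2 ratio of each of the other 8 members to *CWINV4* in each library (circles female, triangles male, lines through group means), centred on the mean over the 23 libraries, by hr from anthesis. All 8 genes have their lowest ratio at −15 hr in both sexes.

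The log2 ratio of each other member to *CWINV4* in the same library follows the changes of *CWINV4*, which enter every ratio, and nothing particular to the members is read from its direction. Averaged over the sexes, the ratio fell in 8 of 8 members from −24 to −15 hr, where 99.1% of all genes were lower, and rose in 8 of 8 from −15 to 0 hr, where 98.1% were higher. Apart from the *CWINV1*-like gene, the changes ran from −1.57 (*INV2*, SE 0.56) to −3.37 (*CINV1*-like A-type, SE 0.55) in the first of these steps and from 2.86 (D-type, SE 0.54) to 6.0 (*CINV1*-like A-type, SE 0.55) in the second. From 0 to +9 hr, 5 members rose against *CWINV4* (97.9% of all genes were higher). Among them were the *CWINV1*-like gene, from which nothing is read, and the A-type gene, by 5.67 (SE 0.51). The *CWINV2*-like gene and the B-type gene fell along with *CWINV4*, with log2 ratios changing by −0.38 (SE 0.51, adjusted p = 0.46) and 0.19 (SE 0.51, adjusted p = 0.72), and *INV2* was just outside (1.02, adjusted p = 0.053). Since limma shares the spread of *CWINV4* over all ratios, its p-values for them can be too small, though that of *INV2* in the last step was the larger one. With the variance of each ratio taken alone (15 degrees of freedom, an alternative added once the data had been seen), the same 8 and 8 members passed in the first 2 steps (99% and 97.9% of all genes), and 6 in the last (97.4%), with *INV2* added (adjusted p = 0.035). All counts of members called in this paragraph include the *CWINV1*-like gene.

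Pearson's r of log2(value + 1) over the 23 libraries, which share stages and scaling, is given as a description. By this r, the members apart from the *CWINV1*-like gene fell into 3 patterns. *CINV1* (r = 0.92), the D-type gene (0.90), *INV2* (0.85) and the *CWINV2*-like gene (0.84) followed *CWINV4*, and the B-type gene did less (0.67). The *CINV1*-like A-type gene did not (0.07). The A-type gene ran the other way (−0.41). From the r of the *CWINV1*-like gene (−0.66) nothing is read, since most of its values lie near the floor, as described above. The closest pair was *INV2* and *CINV1* (r = 0.93). Among 8858 genes, *CINV1* ranked 46th and *INV2* 210th in likeness to *CWINV4*.

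The 5 described genes most like *CWINV4* were a subunit of mitochondrial isocitrate dehydrogenase, an enzyme of the citric acid cycle (XM_008451012.1, r = 0.97), UDP-glucose pyrophosphorylase, which makes UDP-glucose (DQ445483.1, 0.96), the chloroplast maltose carrier maltose excess protein 1 (XM_008464630.1, 0.96), a gene described as neurofilament heavy polypeptide (XM_008446796.1, 0.95) and citrate synthase, which opens the citric acid cycle (XM_008463012.1, 0.95). UDP-glucose pyrophosphorylase had 13180, 17264 and 9828 normalized reads in female nectaries at −24 hr, 94370 and 65360 at −15 hr, 10304, 22009 and 20201 at 0 hr, and 3105, 3631 and 1477 at +9 hr. It peaked in the same female libraries as *CWINV4* and changed less, by 2.59 log2 units from −24 to −15 hr (SE 0.45, adjusted p = 0.00014) against 5.54.

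The genes around the invertases in sucrose metabolism did not share 1 direction, and neither did all genes. The words for sucrose synthases, sucrose-phosphate synthases, hexose kinases, sugar carriers and raffinose enzymes found 34 genes, 3 of them glycolytic 6-phosphofructokinases. From −24 to −15 hr, 10 rose and 7 fell in females, where 13.9% of all genes were higher and 24% lower. In males, 3 rose and 1 fell (1.57% and 3.7% of all genes). From −15 to 0 hr, 7 rose and 8 fell in females (20.5% and 31.1%), and 7 rose and 7 fell in males (17.5% and 29.7%). From 0 to +9 hr, 13 rose and 13 fell in females (32% and 17.3%), and 14 rose and 13 fell in males (31.4% and 17.6%). The median log2 fold change of the list in females from −24 to −15 hr was 0.44, against 2.80 for the members. The median over all genes was −0.19, as given above.

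*SWEET9*, which exports sucrose, had 136, 220 and 165 normalized reads in female nectaries at −24 hr, 292544 and 188998 at −15 hr, 300500, 269060 and 356879 at 0 hr, and 22863, 368 and 951 at +9 hr. It gained 10.42 log2 units between the first 2 stages (adjusted p = 4.3e-07) and overlapped its −15 hr libraries at 0 hr, where *CWINV4* overlapped its −24 hr libraries. *SPS2* (XM_008458932.1), a sucrose-phosphate synthase that makes sucrose phosphate, had 208546 and 144523 in females at −15 hr and 252574, 162382 and 136965 at 0 hr, so that these stages overlapped, and it fell by 6.19 log2 units to +9 hr (adjusted p = 3.6e-06).

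*SUS5* (XM_008464945.1), a sucrose synthase, which splits sucrose by another reaction than invertases, rose in the first 2 female steps. Its female values were 505, 1457 and 5824 at −24 hr, 47769 and 23186 at −15 hr, 215600, 223349 and 198252 at 0 hr, and 34783, 24527 and 13595 at +9 hr. It rose by 4.36 and by 2.67 log2 units in these steps (adjusted p of 0.00011 and 0.0041), and by 2.30 in males from −15 to 0 hr (adjusted p = 0.0055). A second sucrose synthase gene (XM_008452746.1) was at its lowest where *CWINV4* peaked, with 5 and 6 reads in female nectaries at −15 hr after 212, 230 and 177 at −24 hr, and with 391, 255 and 246 at 0 hr. It fell by 4.99 and rose by 5.49 log2 units (adjusted p of 4.5e-07 and 5.9e-08), and in males it rose by 4.93 from −15 to 0 hr (adjusted p = 5.0e-08).

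Of the sugar carriers, sugar transport protein 14-like (XM_008467241.1), of a family that takes up hexoses, rose from at most 8 reads at −15 hr to 89 to 213 at 0 hr in both sexes (log2 fold changes of 6.07 and 4.94, adjusted p of 1.2e-05 and 3.2e-05). Sugar transport protein 13 (XM_008451338.1) rose in males from 1 to 6 reads at −24 hr to 17 to 74 at −15 hr (3.19 log2 units, adjusted p = 0.048). A gene described as probable galactinol–sucrose galactosyltransferase 1 (XM_008465452.1) rose from −24 to −15 hr by 2.67 log2 units in females (adjusted p = 0.00075) and by 4.60 in males (adjusted p = 1.7e-05). Among enzymes that phosphorylate the hexoses, fructokinase-1 (XM_008469032.1) fell in males from 853, 1026 and 704 at −24 hr to 30, 47 and 49 at −15 hr (a change of −4.34 on the log2 scale, adjusted p = 1.7e-05). Fructokinase-4 (XM_008461823.1) fell from −15 to 0 hr in both sexes (−3.08 and −2.20, adjusted p of 0.00033 and 0.0022). Of the alpha-galactosidases, which release sucrose from raffinose sugars, XM_008447689.1 fell in females from −24 to −15 hr (−3.90, adjusted p = 0.037). It had 429, 431 and 222 reads, then 133 and 3, so that the size of the fall rests largely on 1 library near the floor. XM_008447688.1 fell in males from −15 to 0 hr, to 6, 4 and 14 reads, which also lie near the floor (−2.95, adjusted p = 0.0013). Another, XM_008458716.1, had 2103, 2436 and 2155 reads in females at −24 hr and 2333 and 2331 at −15 hr. A UDP-glucose pyrophosphorylase-like gene (XM_008447102.1) fell from −15 to 0 hr in both sexes (−2.51 and −2.17, adjusted p of 0.00044 and 0.00061).

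No entry was described as an invertase inhibitor. Outside the 9 members, 5 genes had an Arabidopsis match of the superfamily shared by inhibitors of invertases and of pectin methylesterases, 3 of them described as pectinesterases and 2 as 21 kDa proteins. One of the latter (XM_008468894.1) had 526, 578 and 543 normalized reads in female nectaries at −24 hr and 100, 164 and 127 in male ones, and the other (XM_008468661.1) was at 0 to 7 in the libraries before +9 hr and at 10, 512 and 486 in the female +9 hr libraries. Whether their proteins bind invertases is not given in the files.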

How the data were processed

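RNA from nectaries was sequenced by the authors as TruSeq libraries of paired 50-base reads. Per the authors' methods, Trinity was used for assembly and blastn to assign contigs to melon genes (E-value cutoff of 1e-05). The authors deposited upper-quartile normalized, rounded reads per gene, which are scores and not raw counts, so no count model was used. Of 28 files, 1 held values per library and was used. Other files and columns hold group means, SDs, fold changes and p-values of the authors' comparisons, which were not used. Values were tested as log2(value + 1) with limma (version 3.58.1, R 4.3.3), with 1 mean per sex and stage, a mean-variance trend and moderated variances, after a filter for at least 10 in at least 2 libraries, which all 8861 genes passed. The script was tested on simulated data. P-values were adjusted over all genes per comparison. Depth in reads is unknown, so values under about 10 are not read as absence. The members, marker and pathway lists were chosen with earlier results of these data known. Besides the members, the text names the 5 described genes with the highest r with *CWINV4*, *SWEET9*, *SPS2* and *SUS5*, and the 2 pathway genes with the largest called change each way between −24 and −15 and between −15 and 0 hr in each sex. Alternatives were other pseudocounts, filters, scalings, variance settings, a replicate block and leaving out each library. The gene-wise variance of ratios, the fit without the female −24 hr libraries and the naming of the 21 kDa protein genes were chosen after seeing the data.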

Additional observations from a re-analysis of the deposited data

Results flagged for a closer look

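Between −24 and −15 hr, 7 invertase genes changed differently in female and male nectaries by limma's test of the difference between the changes. As female minus male log2 change, the values were 3.44 (standard error 0.57, adjusted p = 0.00021) for *INV2*, 3.16 (0.87, 0.010) for *CWINV4*, 3.15 (0.96, 0.019) for the B-type gene (XM_008449769.1) and 2.95 (0.62, 0.0017) for *CINV1* (XM_008448549.1). They were 1.56 (0.45, 0.014) for the A-type (XM_008440750.1), 1.33 (0.39, 0.015) for the D-type (XM_008463700.1) and 1.32 (0.41, 0.021) for the *CINV1*-like A-type gene (XM_008455051.1). All 7 rest on the female −24 hr libraries, in which the nectary marker genes summed to 173 to 284 normalized reads, and the part of this in the result was not tested. They also rest on 2 female libraries at −15 hr, and 3 of the 7 passed without replicate 1 of these.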

How the results depend on the processing

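Of the 54 tests between successive stages, 33 calls of members were made, and 30 to 35 without 1 library. The calls were 38 (37 to 39) between the other pairs of stages, 9 (9 to 11) between the sexes, 7 (3 to 8) for changes that differed between the sexes, and 21 (21 to 22) for ratios to *CWINV4*. Calls of the *CWINV1*-like gene, from which nothing is read, are among the 33, 38, 9 and 21, and among those with estimated library weights. The calls for changes that differed between the sexes were 4 with total scaling and 11 with estimated library weights, and those between the sexes were 18 with the weights (5 of them at 0 hr), whose estimation stopped before it converged. The cause was not tested. With quantile normalization, the change of the *CWINV1*-like gene (XM_008464234.1) from −15 to +9 hr in males was −0.50, against 2.10 as reported. Of the values per gene, 24 lost and 38 gained a call under 1 of the other settings, and 34 lost and 21 gained one without 1 library. Libraries with the same replicate number did not deviate together (r between −0.50 and 0.27, over 0.1 in 8 of 44 pairs), so they share only a number. With the replicate block, the calls were 34, 38, 9, 7 and 21 in the same order. Without the 3 female −24 hr libraries, a choice made after seeing the data, the counts of members called in the comparisons that do not use them did not change. Depth limits statements on the *CWINV1*-like gene outside +9 hr.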
